A study of Homo sapiens with 17 samples.

Results

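The comparison described is that of the TEAD inhibitor VT107 at 2.15 µM with its vehicle DMSO, over newly made RNA in SNU-761 cells. It holds 4 of the 17 libraries of the series, chosen by their sample labels: 2 from cells given VT107 at 2.15 µM and 2 from cells given DMSO. SNU-761 is an established human liver carcinoma line, labelled as wild type, and all groups used here are that 1 line. Every labelled group was collected after 4 h. The other groups of the same experiment were VT107 at 0.1 µM (2 libraries) and cells without thiouridine (1 library). A second experiment held intetumumab, an antibody against integrins with the αV chain, at 1.5 and 5 µg/ml and an isotype IgG1 at 5 µg/ml, each with 3 libraries, and its own library without thiouridine.

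TEAD proteins bind DNA at enhancers and promoters and are switched on by the coactivators YAP and TAZ, which the Hippo kinases hold out of the nucleus. In the liver, YAP and TEAD are known for control of organ size, of regeneration and of the growth of tumours. VT107 is known to block the lipid modification that TEAD proteins place on themselves, in all members of the family. SLAM-seq follows transcription over a short time: cells take up thiouridine, alkylation makes each thiouridine read as C in place of T, and reads with such conversions stand for RNA made while the label was present. A change in a count at 4 h can come from how much RNA was made or from how fast it was lost again, and these cannot be told apart.

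The deposited table gives genes by Ensembl ID without names. The reference table used here held 0 entries with an Ensembl ID, so 0 of 19867 IDs were matched to a symbol. Functional classes, markers of the cell line and promoter sequences were therefore not analysed here. Genes are given by ID for 2 of those that were lower and 2 of those that were higher, picked after their values were seen, and the 11 called genes are otherwise given by their rank in DMSO level, from 1 (highest) to 11.

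DMSO replicates 1 and 2 held 1001568 and 1103024 counts, and replicates 1 and 2 of VT107 held 1778876 and 1247990. The treated libraries were thus the deeper pair. Replicates correlated with Spearman's rho of 0.932 in DMSO and 0.966 at 2.15 µM across genes. The labels name no separate cultures behind them, and the p-values then rest on a spread between libraries that may be technical. The unlabelled library of the experiment held 10702 counts.

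At 2.15 µM 11 genes had less new RNA than in DMSO, and none had more. That is 0.109% of the 10083 genes tested, by the quasi-likelihood test of edgeR at an adjusted p under 0.05. The falls ran from 2.25- to 4.93-fold, with a median log2 fold change of -1.63. In all 11 genes both treated libraries lay below both DMSO libraries. The lowest DMSO library stood 2.12 to 3.77 times above the highest treated one, while the 2 DMSO libraries differed from each other by 1.05 to 1.42 times. The count was 4 without DMSO replicate 1, 26 (17 lower and 9 higher) without DMSO replicate 2, and 1 without either treated replicate. Over all genes tested, 20.6% had treated libraries below both DMSO libraries and 24.1% had them above.

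By mean level over the 6 libraries of the experiment, the 11 called genes lay between percentiles 93.3 and 100. The DMSO libraries that gave the calls are part of that mean. ENSG00000137331, rank 1, had more counts in DMSO than any other gene. Its 2 DMSO libraries were at 28708 and 31549 counts per 1e6 after scaling (CPM), and its treated libraries at 9125 and 10379 CPM. It gave 2.67% and 2.96% of all new RNA counts in DMSO, and 0.948% and 1.08% at 2.15 µM. The groups were well apart, and the log2 fold change was -1.63 (SE 0.11, 95% interval -1.88 to -1.37, edgeR adjusted p = 0.00310). Its unlabelled library held 108 counts, which was 0.364% of its mean DMSO count.

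ENSG00000171223, rank 7, had the largest fall. It was at 2125 and 1529 CPM in DMSO and at 405 and 335 CPM at 2.15 µM. The 2 DMSO libraries differed by 1.39 times, and the lower of them was 3.77 times above the higher treated one. The log2 fold change was -2.30 (SE 0.22, 95% interval -2.80 to -1.80, edgeR adjusted p = 0.0193). Its call was lost without replicate 1 or replicate 2 of the treated group, and in a fit of these 4 libraries alone, with log2 fold changes of -2.44, -2.17 and -2.31. The call of ENSG00000137331 was kept in all 13 alternatives run, with log2 fold changes between -1.72 and -1.47.

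The other 9 genes had DMSO means from 509 to 2940 CPM and means at 2.15 µM from 130 to 1051 CPM. Rank 2 was at 2453 and 3427 CPM in DMSO and at 723 and 835 CPM at 2.15 µM. Rank 4 was at 1738 and 2467 CPM in DMSO and at 503 and 553 CPM at 2.15 µM. Rank 3 was steadier in DMSO, at 2314 and 2423 CPM, and had the smallest of the 11 falls, to 1092 and 1010 CPM (log2 fold change -1.17, SE 0.14, edgeR adjusted p = 0.0310). Rank 11, the gene with the least new RNA of the 11, went from 489 and 528 CPM to 143 and 117 CPM, and the unlabelled library held 0 counts of it. All counts of rank 10 were multiples of 5. Its log2 fold change was -1.55 with its counts as deposited and after division by that number, while the call was lost by the division (edgeR adjusted p = 0.0653 in place of 0.0263). It was called in 6 of the 13 alternatives, with log2 fold changes between -1.69 and -1.38 over all 13.

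**Figure D1:**
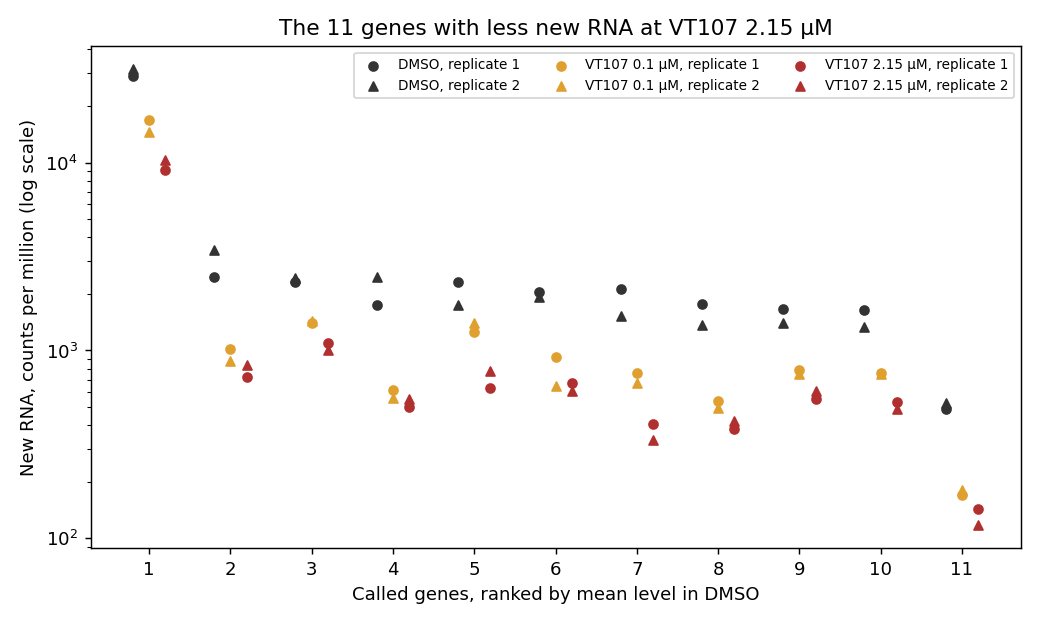
New RNA of the 11 called genes in each library of the VT107 experiment, in CPM on a log axis, with genes ordered by mean level in DMSO. In every gene both libraries at 2.15 µM (red) lie below both DMSO libraries (black), and both libraries at 0.1 µM (yellow) also lie below DMSO. The genes were called on these same DMSO libraries, which makes values below DMSO likely at both doses.

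Few counts of these genes were found without thiouridine. The unlabelled library held between 0 and 108 counts of each, which was at most 0.686% of the mean DMSO count and at most 1.34% of the mean count at 2.15 µM. These percents compare raw counts and were not scaled for sequencing depth, which counts of converted reads alone do not give. With 1 unlabelled library there is no replicate check.

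Together the 11 genes held 4.40% and 4.66% of all new RNA counts in DMSO, 2.52% and 2.25% at 0.1 µM and 1.53% and 1.68% at 2.15 µM. Without rank 1, the other 10 held 1.73% and 1.70% in DMSO and 0.585% and 0.598% at 2.15 µM. Both sums fell between the groups by more than the replicates of a group differed. The genes were called for this difference, so the sums describe its size and are no further support for it.

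New RNA as a whole was spread over more genes at 2.15 µM. In DMSO the 721 and 736 most abundant genes held 50% of all counts, and with VT107 at 2.15 µM it took 931 and 937 genes. The libraries at 0.1 µM lay between, at 861 and 878. The difference between 2.15 µM and DMSO was 205.5 genes, and 206 with every library thinned to 789214 counts. It was 152.5 genes with the 11 called genes left out, and 181 with counts divided by their common divisor. The 100 most abundant genes held 21.4% and 21.8% of counts in DMSO and 17.8% and 17.9% at 2.15 µM. With 2 libraries a group an exact permutation test cannot give a two-sided p below 0.333, so none was run.

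The DMSO libraries were the most concentrated of the 15 labelled ones. In the isotype libraries 50% of the counts lay in 831 to 845 genes, and with intetumumab at 5 µg/ml in 879 to 898. At equal depth the DMSO libraries had counts in 11033 and 11592 genes and the libraries at 2.15 µM in 12207 and 12159. At 0.1 µM the numbers were 11315 and 11617, which overlap with DMSO.

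**Figure D2:**
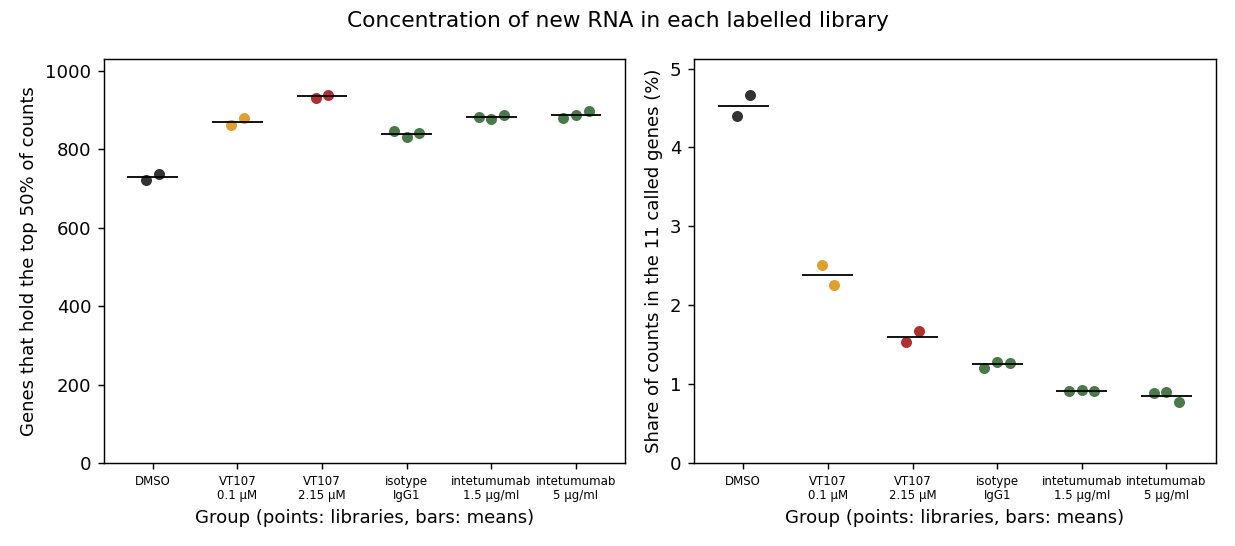
Left, the number of most abundant genes that together hold 50% of the counts of each labelled library. Right, the percent of counts in the 11 called genes. Points are libraries and bars are group means, and the DMSO libraries lie lowest on the left (721 and 736 genes) and highest on the right (4.40% and 4.66%).

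The direction of change depended on how abundant a gene was. To keep the measure of abundance apart from the 6 libraries tested, genes were ranked by their level in the isotype libraries of the other experiment. Of the 100 highest genes, 34 were lower and 9 higher at an unadjusted p under 0.05 (edgeR), and their median log2 fold change was -0.22. In ranks 101 to 500 there were 93 lower and 25 higher, or 23.2% and 6.25% of the class. In ranks 501 to 1000 there were 72 lower and 25 higher. Among genes beyond rank 5000 the order was turned, with 164 lower (3.23%) and 276 higher (5.43%) and a median of 0.11. Over all genes, 6.30% were lower and 5.28% higher at this level.

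Of the 11 called genes, 10 were within the first 1000 ranks by isotype level, 2 of them within the first 100. The remaining called gene was at rank 3206. Precision also differed with abundance, since the median SE was 0.18 in the first 100 genes and 0.62 beyond rank 5000. The median over all genes was 0.03, and 0.18 when libraries were scaled by total counts. The medians were then -0.07 for the first 100, 0.02 for ranks 101 to 500 and 0.27 beyond rank 5000, so the sign turned for the 3 classes from rank 101 to 2500, while the order of the classes did not.

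**Figure D3:**
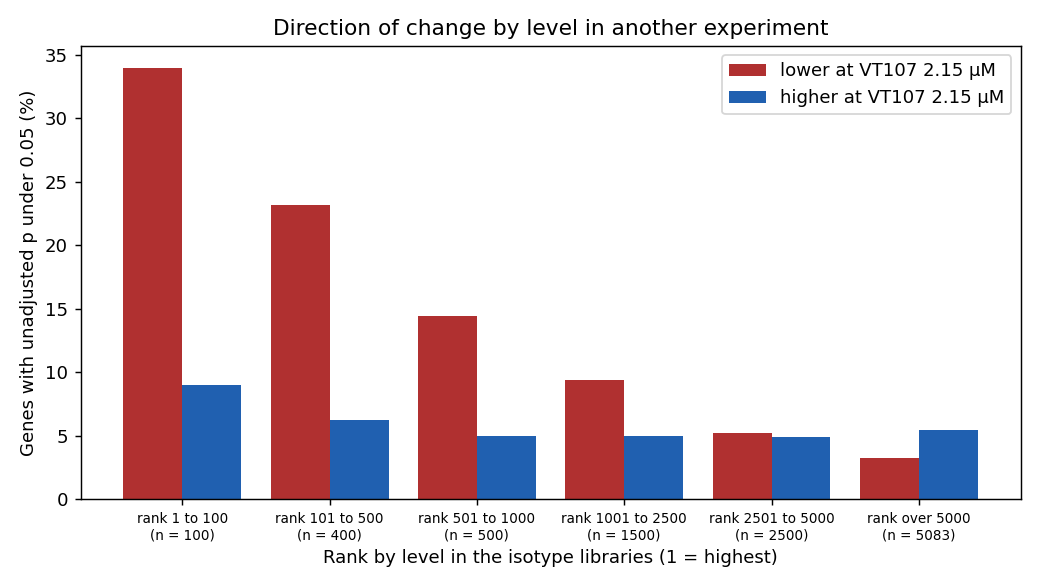
Percent of genes with an unadjusted p under 0.05 (edgeR) that were lower (red) or higher (blue) at VT107 2.15 µM than in DMSO, in 6 classes by rank of level in the isotype libraries. Lower genes go from 34% of the first 100 to 3.23% beyond rank 5000, and higher genes from 9% to 5.43%.

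No rise passed the threshold. The 12 higher genes with the smallest unadjusted p, taken among those with both treated libraries above both DMSO libraries, had adjusted p between 0.0521 and 0.104 (edgeR) and log2 fold changes of 1.25 or more. Their median level in DMSO was 47.9 CPM, against 1989 CPM for the 11 called falls. Both sets were chosen by their difference from DMSO, so their DMSO levels are partly set by that choice. By mean level over the 6 libraries, the median percentile was 83.3 for the 12 and 99.3 for the 11. ENSG00000148926 had the highest DMSO level of them, at 404 and 561 CPM, and was at 1210 and 1320 CPM at 2.15 µM. The groups were apart by more than their spread, with a log2 fold change of 1.39 (SE 0.21, edgeR adjusted p = 0.0636).

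ENSG00000189042 had the smallest p of the 12. Its DMSO libraries held 0 and 1 counts, those at 0.1 µM held 57 and 27, and those at 2.15 µM held 72 and 88. With the libraries of a group summed, that is a ratio of 111 per total count between 2.15 µM and DMSO (95% exact Clopper-Pearson interval 19.7 to 4421, for counting error only). The edgeR adjusted p was 0.0521. This gene was picked for its small p and passed the filter on low counts only by its counts with VT107. The ratio, interval and p therefore only describe it and are no support for a rise. The isotype libraries held it at 37.5 ± 15.7 CPM (SD, n = 3), near its 54.3 ± 20.8 CPM at 2.15 µM (SD, n = 2) when all labelled libraries were scaled together. DMSO therefore stood lowest of these groups for this gene. Another of the 12 had 388 counts in the unlabelled library, which was 98.5% of its mean count in DMSO and 26.3% of that at 2.15 µM. Its count without thiouridine was thus about as high as its count in DMSO, without scaling for depth.

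The 12 lower genes next in line had adjusted p between 0.0521 and 0.0846 (edgeR), log2 fold changes from -3.38 to -0.94 and a median DMSO level of 588 CPM. The nearest of them had an unadjusted p of 6.25e-05, beside 4.43e-05 for the weakest of the 11 inside the threshold (edgeR adjusted p = 0.0406) and 3.07e-07 for ENSG00000137331, the strongest.

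**Figure D4:**
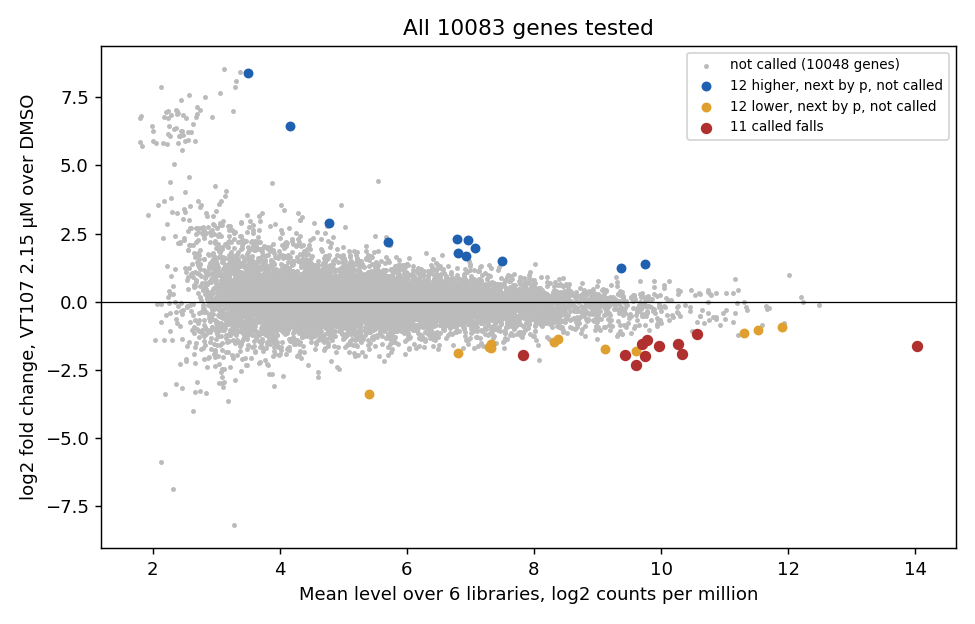
Log2 fold change of VT107 2.15 µM over DMSO for 10083 genes against the mean log2 CPM over the 6 libraries of the experiment. The 11 called falls (red) lie among the genes with the most counts, and the 12 higher genes with the smallest p (blue, not called) mostly lie at lower levels.

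The number of calls depended strongly on the fit. A wider set is described too, taken from the alternatives that gave the most calls. DESeq2 called 245 genes (188 lower and 57 higher) of the 10083 given to it. Without a filter on low counts, edgeR called 199 (125 lower) of 13575. On all 15 labelled libraries, edgeR called 155 (112 lower) of 10227. These fits use the same 4 libraries and are no independent evidence. Each other alternative called fewer genes, from 33 with a minimum count of 30 to 1 with only the 4 libraries compared. The fits with the most calls shared 105 genes, 83 lower and 22 higher, and the 83 included all 11 of the main calls. The genes shared are therefore no consensus of all alternatives.

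The 83 lower genes had log2 fold changes between -3.38 and -0.75 (median -1.28), with a median level of 619 CPM in DMSO and 290 CPM at 2.15 µM. They held 11.3% of the counts in DMSO and 5.20% at 2.15 µM. The 22 higher genes had log2 fold changes between 0.78 and 3.56 (median 1.44), and medians of 76.1 and 215 CPM. They held 0.677% of the counts in DMSO and 1.58% at 2.15 µM. By mean level over the 6 libraries, the lower genes lay at a median percentile of 96.3 and the higher ones at 86.4. Both sets were called for their difference between these groups. The fold changes and shares therefore describe its size and are no further support for it, and the levels come from the same libraries. Counts with a common divisor above 1 were found in 19 of the 83 and 2 of the 22, against 14.9% of the 9757 genes examined.

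At 0.1 µM, compared with the same DMSO libraries, the 11 genes had a median log2 fold change of -1.33, between -1.84 and -0.61. The genes were called on these DMSO libraries, which makes a negative value at 0.1 µM likely, so this is a description. No gene of the table was called at 0.1 µM by edgeR (0% of 10083, 1219 genes at an unadjusted p under 0.05). ENSG00000137331 was at 16834 and 14549 CPM, between DMSO and 2.15 µM. ENSG00000171223 was at 759 and 672 CPM, also between them. Rank 4 was at 617 and 556 CPM, near its level at 2.15 µM.

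Set directly against 0.1 µM, the higher dose had lower values in all 11 genes, by log2 differences from -0.95 to -0.15 (median -0.42). In 10 of them both libraries at 2.15 µM lay below both at 0.1 µM, where 19.0% of all genes did so. An unadjusted p under 0.05 was reached by 6 of the 11, where 2.76% of all genes were lower at that level. The libraries at 2.15 µM had a part in choosing these genes, so this is a description. No gene passed after adjustment (0% of 10083; smallest edgeR adjusted p 0.886, 534 genes at an unadjusted p under 0.05, 7 called by DESeq2). For ENSG00000137331 the log2 difference was -0.69 (SE 0.11) and for ENSG00000171223 it was -0.95 (SE 0.21), both with an edgeR adjusted p of 0.886. For rank 4 it was -0.15 (SE 0.20, edgeR adjusted p = 0.988).

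The level of these genes in DMSO was high when set beside the other experiment. With all 15 labelled libraries scaled together, all 11 had both DMSO libraries above all 3 isotype libraries, where 22.0% of 10227 genes did so, and the DMSO mean was 1.35 to 6.99 times the isotype mean. The genes were called on the same DMSO libraries, which makes a DMSO level above other groups likely, so this is a description and the share over all genes is no measure for genes so chosen. ENSG00000137331 was at 5639 ± 307 CPM with the isotype (SD, n = 3), against 30595 ± 1512 CPM in DMSO and 9922 ± 898 CPM at 2.15 µM (SD, n = 2 each). ENSG00000171223 was at 745 ± 14.3 CPM with the isotype, 1860 ± 460 CPM in DMSO and 377 ± 50.4 CPM at 2.15 µM. Against the isotype, the libraries at 2.15 µM were lower in 4 of the 11 genes, higher in 5 and overlapping in 2. The share of all genes that lay apart in this comparison was not counted, so these numbers only describe the 11.

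DMSO and isotype are different controls and come from separate experiments. A high level in the 2 DMSO libraries therefore cannot be told apart from a fall under VT107 by these values alone. Of the 12 higher genes that missed the threshold, 8 had DMSO libraries below all isotype libraries (22.9% of all genes did), 1 above and 3 overlapping. These 12 were chosen with low DMSO libraries, so the same holds for this count. ENSG00000148926 was 1 of those 3, at 489 ± 104 CPM in DMSO and 436 ± 6.72 CPM with the isotype, and 1287 ± 78.6 CPM at 2.15 µM.

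**Figure D5:**
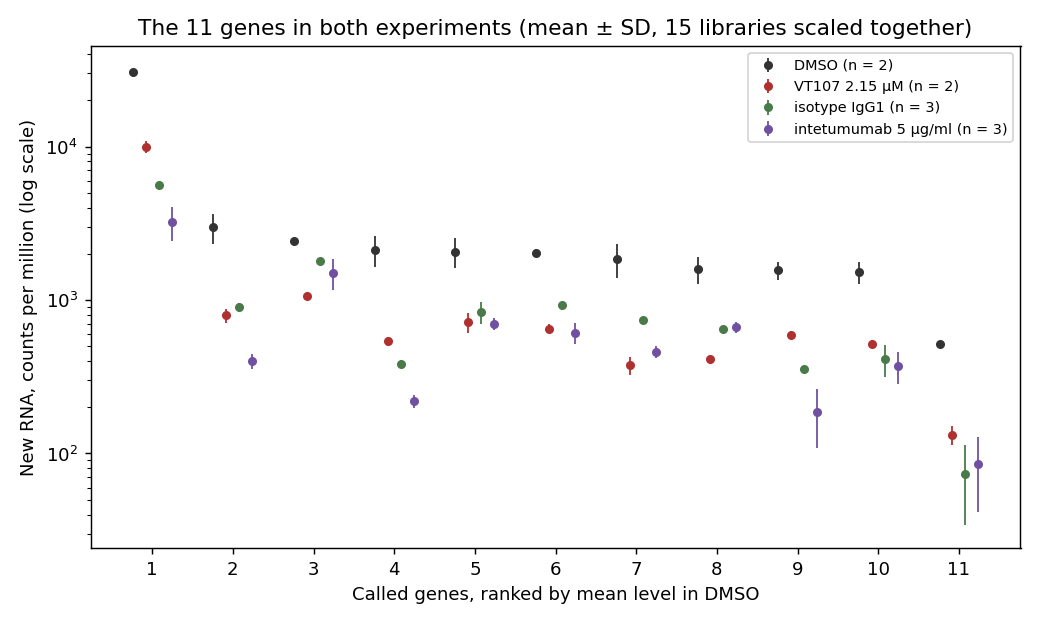
Mean level ± SD of the 11 called genes in DMSO, VT107 2.15 µM, isotype and intetumumab 5 µg/ml libraries, scaled together, in CPM on a log axis and ordered by DMSO level. DMSO is the highest of the 4 groups in each gene, between 1.35 and 6.99 times the isotype mean.

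The effect of VT107 at 2.15 µM was also tested against that of intetumumab at 5 µg/ml, each relative to its own control, in 1 edgeR fit of all 15 labelled libraries. The difference was negative in all 11 genes, which their choice makes likely. It passed for 2 of them, among 8 genes called in all (0.0782% of 10227). Leaving out DMSO replicate 1 or the second treated library gave 1 call in place of 8, leaving out DMSO replicate 2 gave 25, and there were 2 to 5 calls without any other library of the 4 groups. ENSG00000171223 had a difference of -1.60 (SE 0.24, edgeR adjusted p = 0.0189), a call kept in 12 of 18 alternatives and lost with only the groups compared and without DMSO replicate 1, treated replicate 2 or any 1 isotype library (edgeR adjusted p between 0.0576 and 0.225). Rank 8 had a difference of -2.005 (SE 0.20, edgeR adjusted p = 0.000508), with log2 fold changes of -1.96 under VT107 and 0.05 under intetumumab, and was called in all 18. For ENSG00000137331 the difference of -0.82 (SE 0.21) did not pass (edgeR adjusted p = 0.220), and this gene was lower with intetumumab as well, at a log2 fold change of -0.80 (SE 0.14, edgeR adjusted p = 0.0205 in the fit of 15 libraries). Rank 2 was the other of the 11 called with intetumumab in that fit (log2 fold change -1.16, edgeR adjusted p = 0.0117), which called 0.147% of genes.

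Among genes that were higher under VT107, ENSG00000148926 had a difference of 1.45 from intetumumab (SE 0.24, edgeR adjusted p = 0.0360). Its log2 fold change with intetumumab was -0.05 (SE 0.16). In the same fit of 15 libraries its rise over DMSO passed as well (log2 fold change 1.40, edgeR adjusted p = 0.00130), where it had missed the threshold in the fit of 6. The call of the difference was kept in 8 of 18 alternatives, with differences between 1.23 and 1.68. It was lost with the replicate block, with only the groups compared, and without DMSO replicate 1, either treated replicate, any 1 isotype library or intetumumab replicate 1 or 3 (edgeR adjusted p between 0.0716 and 0.225).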

How the data were processed

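New RNA was measured by SLAM-seq from 3′ end libraries (QuantSeq), per the labels' protocols. The authors deposited a raw count per gene and library, made with the SLAM DUNK pipeline according to the series design text. The submitters' processing notes name build GRCh38. The pipeline's version, the annotation, the conversions required per read and the treatment of reads with several matches were not given in the sources used here, and genes that share sequence are uncertain. All 17 columns were matched to samples by name.

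The 6 labelled libraries of the VT107 experiment were fitted with 1 mean per group. Genes were kept by filterByExpr (minimum count 10), which left 10083 of 19867 genes, with at least 99.1% of counts in each library. Counts were scaled by TMM and tested two-sided with edgeR 4.0.16 (R 4.3.3, quasi-likelihood), with Benjamini-Hochberg adjustment over all genes tested and calls at 0.05. SE is the size of the log2 fold change over the square root of F, with 8.32 degrees of freedom for intervals. The biological coefficient of variation was 0.326. The fit was tested on simulated data. Thinning drew counts without replacement to 789214 per library and, like the sum without called genes, was added after the data were seen. Alternatives were DESeq2 1.42.0, other scaling, filters and libraries, a replicate block, robust estimation, counts divided by their common divisor and leaving out each library.

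The naming rule took every called gene and the 12 genes next by p in each direction with groups apart. By that rule genes without a symbol were to be counted and not named. The genes given by ID here are an exception to it, picked after their values were seen. The planned gene lists were not used, since 0 IDs were matched to symbols. The comparison, lists and rules were chosen with earlier results of these data known.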

Additional observations from a re-analysis of the deposited data

Results flagged for a closer look

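The effects of VT107 at 2.15 µM and of intetumumab at 5 µg/ml, each against its own control, differed in 8 genes by edgeR's test of the difference itself, 4 with a negative and 4 with a positive difference. Of these, 2 were among the 11 genes called at 2.15 µM.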

How the results depend on the processing

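All 11 genes called at 2.15 µM stayed lower than DMSO in all 13 alternatives, which their choice made likely, but the number of calls moved. It was 245 with DESeq2, 199 without the filter, 33 with a minimum count of 30 and 155 with 15 libraries in the fit. It was 5 with total count scaling and 1 with only the 4 libraries compared. Leaving out single libraries gave 1 to 26 calls: 4 without DMSO replicate 1, 26 (17 lower and 9 higher) without DMSO replicate 2, and 1 without either treated replicate. The replicate block gave 5 calls. The labels do not say that numbers pair libraries, and deviations of same-numbered DMSO and 2.15 µM libraries correlated with r of -0.0107. Against 0.1 µM, DESeq2 called 7 genes and edgeR without the filter 4, where the other 11 alternatives called 0. For the difference from intetumumab, the count was 104 with DESeq2, 42 without the filter, 4 with the replicate block, 2 with only the groups compared and 1 to 25 without single libraries: 1 without DMSO replicate 1 or treated replicate 2, and 25 without DMSO replicate 2. The causes were not tested. Precision was lower for genes with fewer counts, as the median SE of 0.62 beyond rank 5000 and of 0.18 in the first 100 genes by isotype level shows.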

Other observations

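Among the genes tested, 49 had no count in either DMSO library and counts in both libraries at 2.15 µM, with 12 to 131 counts there in all (median 36). The reverse was found for 2 genes, with 25 and 63 counts in DMSO. The treated libraries were deeper, and 0 of these genes were called by edgeR, although 44 of the 49 and both of the 2 had an unadjusted p under 0.05. With no count in a group, a gene passed the filter on low counts only by its counts in the other groups. Small p-values are therefore likely for genes so chosen, and their number is only a description.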
